A study of Mus musculus with 6 samples.

Results

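The beta-defensin family was followed in whole testis through every probe whose deposited symbol began with Defb: 40 probes on 35 symbols, of 45281 probes on 31508 symbols on the array. Expression was measured in 6 C57BL6J mice aged 8 weeks, from 2 litters that each gave 1 mouse of every genotype. The KO mice were H3f3b -/-, the HET mice carried 1 deleted H3f3b allele, and the WT mice carried none. The deletion was constitutive and came from a floxed allele crossed to Zp3Cre, a Cre driven in oocytes, so all cell types of KO and HET testes carried it. One testis per mouse was hybridised to 1 Illumina bead array, and RNA of all testis cell types was measured together.

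Beta-defensins are small, secreted, cationic peptides held together by disulphide bonds between conserved cysteines. They kill microbes by disturbing membranes, and some attract immune cells through the chemokine receptor Ccr6. In the male tract many members are made by the epithelium of the epididymis, the duct attached to the testis, and coat the passing sperm. Deletion of a block of the chromosome 8 cluster has been described to make male mice infertile, with abnormal sperm function. A signal in testis RNA can thus come from testis cells or from attached duct tissue.

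The genes lie in clusters on chromosomes 8 (27 probes), 2 (8 probes), 1 (3 probes) and 14 (2 probes). Of the 35 symbols, 30 are current in RefSeq and 5 have been renamed: Defb17 is now Defb41, Defb27 is Defb45, Defb49 is Defb44-ps, Defb51 is Gm6040 and Defb53 is Defb46. Several current names were formerly used for other members, such as Defb15 for Defb7, and probe sequences were not used here. The paralogs are related in sequence, so how well each probe separates its gene from the others was not tested.

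Promoter sequences are shown for the member called higher in KO testes (Defb36), a related gene called lower (Defb30), a dim member with a TATA box (Defb15) and Defb38, which had the lowest detection p among members seen on a single array. Each window runs from 250 bases before to 50 bases after the RefSeq start in build GRCm38.p6, 5′ to 3′ on the gene's strand. Capitals mark AGAACA or its reverse complement, the core of response elements for the androgen receptor and related steroid receptors. The windows are chr2:152604077-152604376 (plus strand) for Defb36, chr14:63037797-63038096 (minus strand) for Defb30, chr8:21932661-21932960 (minus strand) for Defb15 and chr8:19026519-19026818 (minus strand) for Defb38.
Defb36: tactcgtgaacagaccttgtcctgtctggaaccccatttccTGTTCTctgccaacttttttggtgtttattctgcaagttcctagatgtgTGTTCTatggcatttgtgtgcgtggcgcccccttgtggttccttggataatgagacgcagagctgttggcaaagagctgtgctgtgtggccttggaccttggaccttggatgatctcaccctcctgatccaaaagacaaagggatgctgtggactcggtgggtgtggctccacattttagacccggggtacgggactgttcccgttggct
Defb30: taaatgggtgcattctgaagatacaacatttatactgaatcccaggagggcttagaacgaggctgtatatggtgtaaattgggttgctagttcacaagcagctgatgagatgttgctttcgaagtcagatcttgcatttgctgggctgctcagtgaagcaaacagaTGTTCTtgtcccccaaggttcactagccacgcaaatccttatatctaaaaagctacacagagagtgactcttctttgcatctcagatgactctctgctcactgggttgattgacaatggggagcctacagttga
Defb15: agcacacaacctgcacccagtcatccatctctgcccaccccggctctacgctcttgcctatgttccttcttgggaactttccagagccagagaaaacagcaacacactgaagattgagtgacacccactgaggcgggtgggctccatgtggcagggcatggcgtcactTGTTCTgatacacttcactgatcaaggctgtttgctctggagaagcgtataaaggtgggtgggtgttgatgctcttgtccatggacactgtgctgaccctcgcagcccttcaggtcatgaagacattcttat
Defb38: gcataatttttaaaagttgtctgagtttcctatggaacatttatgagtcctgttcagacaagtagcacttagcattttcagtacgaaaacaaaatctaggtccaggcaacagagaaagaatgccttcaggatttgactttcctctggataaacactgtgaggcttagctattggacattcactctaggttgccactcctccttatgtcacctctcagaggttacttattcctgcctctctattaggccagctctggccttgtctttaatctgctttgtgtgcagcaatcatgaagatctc

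RefSeq windows were found for 22 of the 35 member genes. AGAACA, on either strand, was in 13 of these 22 genes (59.1%), against 19.0% of all 32851 promoter windows of the same length. It was in 3 of 5 genes detected in testis and in 10 of 17 genes that were not. In Defb36 the matches began 209 and 160 bases before the start, in Defb15 82 bases and in Defb30 84 bases, all on the minus strand relative to the gene. AGAACA was picked out of 12 motifs searched, after their matches had been seen, and the windows of paralogs are not independent. With 4 related genes added there were 27 windows, and the shares of these against all windows were 59.3% against 19.0% for AGAACA, 14.8% against 13.6% for TATAAA, 3.70% against 10.7% for AACAAT (SOX), 14.8% against 4.72% for AAGGTCA and 14.8% against 1.56% for CAAGGTCA (NR5A1, the second containing the first). For the other 7 they were 18.5% against 11.2% for AGATAA, known from factors of the GATA family, 18.5% against 20.8% for TGACG (the core of the cAMP response element), 29.6% against 20.2% for CACCTG (an E-box) and 3.70% against 2.96% for ACATTGT (DMRT1), and 0% against 1.79% for TGACGTCA (which contains TGACG), 0.304% for GGGAAATCC (NF-kB) and 3.65% for TGTTTAC (forkhead). TATAAA began 35 bases before the start of Defb15. A match describes letters in a window and says nothing about binding.

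The summed deposited signal was between 15427284 and 17674449 per array, and 19809 to 21323 probes per array had a detection p-value under 0.05. H3f3b itself was at background in KO testes (signals of 96.6 and 93, detection p 0.174 and 0.561), against 2377.1 and 1833.5 in HET testes and 3810.8 and 3535.3 in WT testes. One label field gives an age of E12.5, in conflict with the sample names and the design, which state 8 weeks and were followed. Probes of a spermatid list (Tnp1, Prm1 and others) were detected 11 of 13 on every array. A pair of arrays had more than 1 probe over 1 log2 unit above all others, as described below. These were the KO array of litter 2 (4 probes, 3 on an epididymal list) and the HET array of litter 2 (6 probes, 5 on a seminal vesicle list). By smaller margins other arrays stood out too, such as the HET array of litter 1 in Cd74 (0.85 and 0.80).

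Whole testis gave a signal above background for few members. A probe was kept for testing where 1 or more genotypes had both arrays below a detection p-value of 0.05, a comparison with the negative control beads. This held for 8 of 40 member probes (20%), on 7 symbols, against 45.4% of all probes. All 8 were detected on all 6 arrays, also at a detection p under 0.01. On chromosome 2, 4 of 8 probes were kept, on chromosome 8 4 of 27, and none on chromosomes 1 and 14.

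Among the kept probes, Defb36 was called higher and Defb14 lower in KO than in WT testes, and the other 6 did not pass the test. The share of all 20573 kept probes called in this comparison was 6.86% (2.24% higher and 4.63% lower), and 2 of 8 members is too small a count to read against that share. At an unadjusted p under 0.05, 6 of 8 members passed, against 27.8% of all kept probes. Both calls were lost when any 1 of the 6 arrays was left out, HET arrays included. Each such fit left 1 mouse in a genotype, and calls over all kept probes also became fewer.

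On chromosome 2, RefSeq places Defb21, Defb19, Defb45 and Defb36 next to each other in that order, with no annotated gene between them. Defb36 (probe ILMN_2926781) had log2 normalized signals of 11.90 and 11.95 in KO testes of litters 1 and 2, against 11.40 and 11.37 in HET testes and 11.25 and 11.40 in WT testes. Both KO testes lay above the 4 others, and the HET and WT values overlapped. The means were 11.93 ± 0.03 in KO, 11.39 ± 0.02 in HET and 11.33 ± 0.11 in WT (SD, n = 2 each). The KO minus WT difference was 0.60 (SE 0.13, limma adjusted p = 0.0339), a 1.52-fold level. Over the alternative settings it lay between 0.52 and 0.67, with adjusted p-values of 0.000945 to 0.132, and median scaling also ended the call.

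A second Defb36 probe (ILMN_2702382) gave 10.14 and 10.24 in KO testes, against 9.86 and 9.73 in HET testes and 9.68 and 9.76 in WT testes. Its KO values again lay above the rest, and its difference from WT of 0.47 (SE 0.13) had a limma adjusted p of 0.0642. Defb19, which in mouse is known from Sertoli cells, the somatic nurse cells of the seminiferous tubule, gave 13.88 and 14.10 in KO testes, against 13.61 and 13.61 in HET testes and 13.49 and 13.50 in WT testes. The KO testes were the highest and HET testes lay between, but the difference of 0.49 (SE 0.14) did not pass (limma adjusted p = 0.0613). Defb27, now Defb45, gave 10.31 and 10.14 in KO testes, against 10.03 and 10.04 in HET testes and 9.77 and 10.23 in WT testes. Here the KO and WT testes overlapped, and the KO minus WT differences were 0.54 in litter 1 and -0.09 in litter 2 (limma adjusted p = 0.422).

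Of the 4 kept chromosome 8 probes, only Defb14 was called. Defb14, the mouse counterpart of human DEFB103 and an antimicrobial peptide of skin and other epithelia, had log2 signals of 8.22 and 7.96 in KO testes, against 8.51 and 8.49 in HET testes and 8.60 and 8.82 in WT testes. The 3 genotypes did not overlap. The means were 8.09 ± 0.18 in KO, 8.50 ± 0.02 in HET and 8.71 ± 0.16 in WT (SD, n = 2 each), and the KO minus WT difference was -0.62 (SE 0.15, limma adjusted p = 0.0417), a 0.649-fold level. Over the alternative settings it lay between -0.76 and -0.39, with adjusted p-values of 0.00878 to 0.170, and the call ended with median scaling and without the detection filter.

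Defb11 and Defb15 are neighbours, and both lie in the block whose deletion is described above. Defb11 gave 7.86 and 7.71 in KO testes, against 8.14 and 8.09 in HET testes and 8.22 and 8.30 in WT testes. The 3 genotypes did not overlap, and the difference from WT was -0.48 (SE 0.13, limma adjusted p = 0.0617). Defb15 gave 5.70 and 6.04 in KO testes, against 5.77 and 6.37 in HET testes and 6.33 and 6.56 in WT testes. KO and HET testes overlapped, KO and WT testes did not, and the KO minus WT difference was -0.58 (SE 0.21, limma adjusted p = 0.118). With litter as a replicate block the limma adjusted p of Defb15 was 0.0443, and this was its single call among 15 alternative settings. Over these settings its adjusted p reached 0.388, and the difference was -0.28 without background correction and -0.20 with the deposited series values. That of Defb11 was as small as -0.25. Defb33 gave 11.76 and 12.02 in KO testes, against 11.72 and 11.85 in HET testes and 11.75 and 11.72 in WT testes. Its difference of 0.15 (SE 0.14, limma adjusted p = 0.526) was within the spread between mice.

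**Figure D1:**
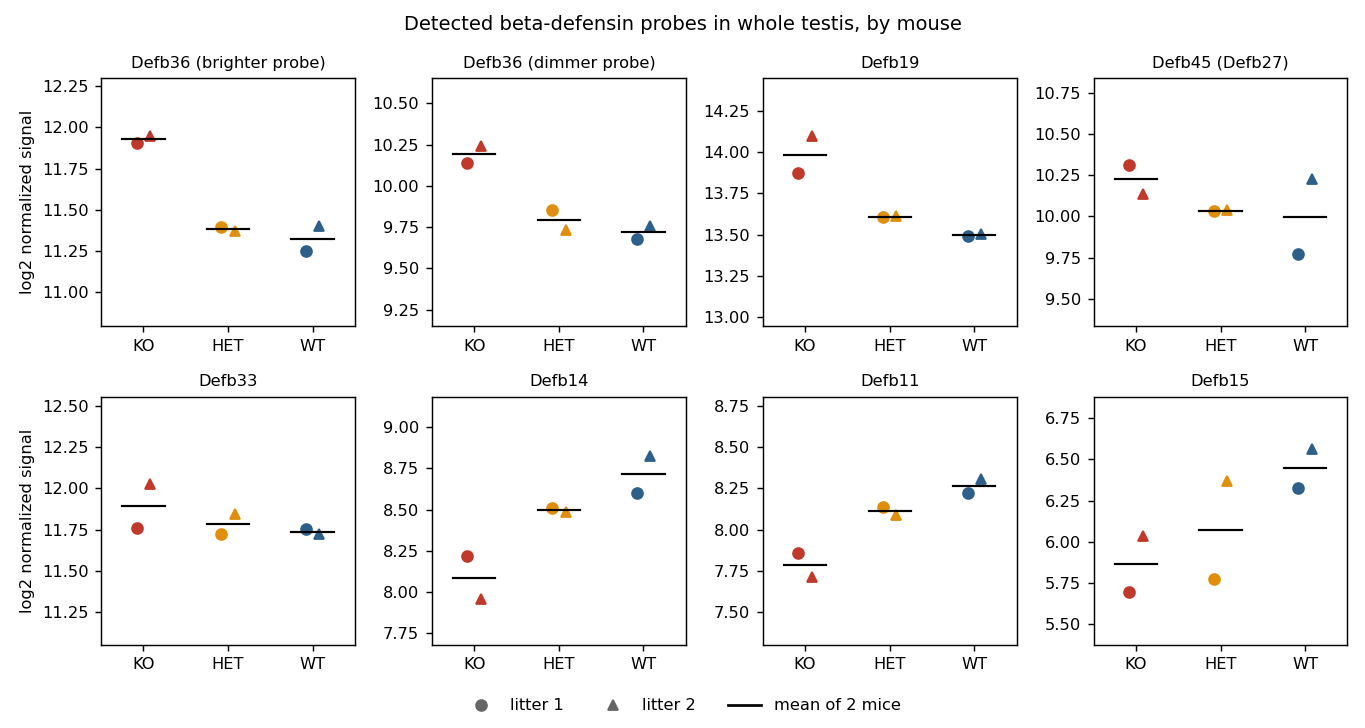
Log2 normalized signal (y axis, each panel spanning the same range) of the 8 kept beta-defensin probes in KO, HET and WT testes. Circles are mice of litter 1, triangles mice of litter 2 and lines the mean of 2 mice. Both Defb36 probes and Defb19 are highest in the KO testes, and Defb14 and Defb11 are lowest there.

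In KO against WT, 5 kept probes were positive and 3 negative, and 7 of 8 had the same sign in both litters. KO and WT values did not overlap for 7 of 8 probes, against 56.9% of all kept probes. These 7 included both Defb36 probes and Defb33, whose litter 1 values were 11.758 in KO and 11.753 in WT. The HET mean lay between the KO and WT means for 8 of 8, against 48.9% of all. The HET minus WT differences ran from -0.37 to 0.11, and limma called 0 of 8 members, 0 at an unadjusted p under 0.05, with a smallest adjusted p of 0.645. Limma called 0% of all kept probes in that comparison, and 8.85% had an unadjusted p under 0.05. KO against HET, which shares the KO arrays with the first comparison, had differences of -0.41 to 0.54 and 0 called members, against 0.112% of all kept probes (0.0194% higher and 0.0924% lower). Its unadjusted p was under 0.05 for 5 of 8 members, against 19.2% of all, and its smallest adjusted p was 0.106.

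Some relatives were listed under older clone names, outside the Defb symbols, and were looked up after the values had been seen. Defb30 (2410125J01Rik), on chromosome 14, gave 7.25 and 6.75 in KO testes, against 7.40 and 7.60 in HET testes and 7.78 and 8.16 in WT testes. The 3 genotypes did not overlap, and the KO minus WT difference was -0.97 (SE 0.20, limma adjusted p = 0.0286). Defb21 (4930525K10Rik) gave 6.84 and 6.72 in KO testes, against 7.12 and 7.07 in HET testes and 7.25 and 7.47 in WT testes. It was thus lower in KO (-0.58, limma adjusted p = 0.0420), while Defb36, in the same run of neighbours on chromosome 2, was higher. Defb20 (9230107O10Rik) differed from WT by 0.20 (limma adjusted p = 0.443). With 1 array left out the call of Defb30 held in 2 of 6 fits and that of Defb21 in 0 of 6. The Defb21 call also ended with median scaling, without the detection filter and with the deposited series values, and the Defb30 call without the filter. Over all settings the difference lay between -0.69 and -0.26 for Defb21 and between -1.22 and -0.55 for Defb30.

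**Figure D2:**
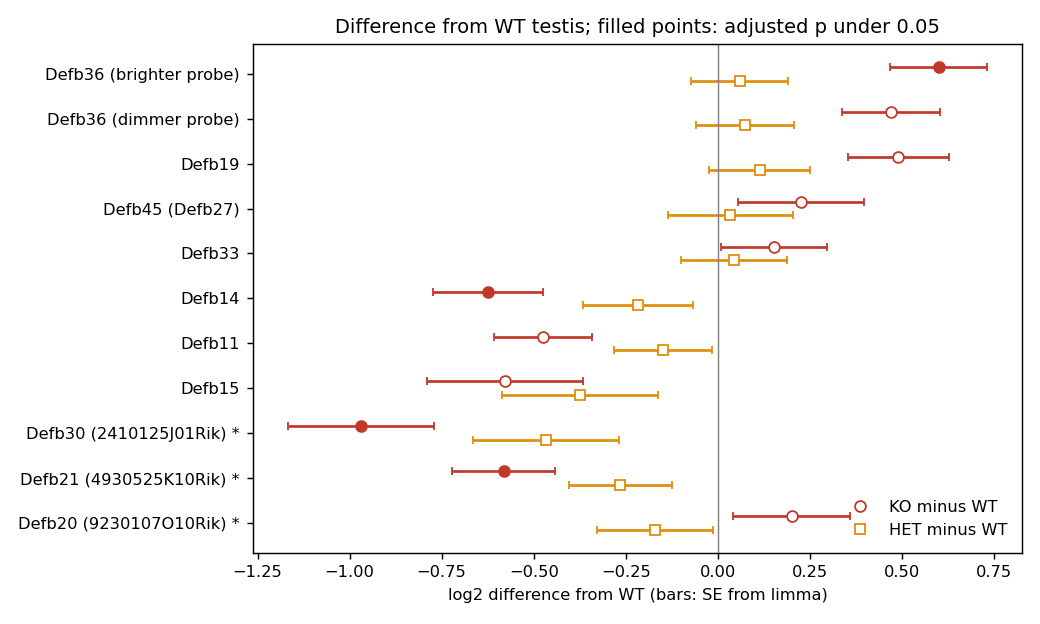
Log2 difference from WT (x axis, bars are the SE from limma) for the kept beta-defensin probes and, with an asterisk, 3 relatives under older names. Circles are KO minus WT and squares HET minus WT. Filled points, which are Defb36 (0.60), Defb14 (-0.62), Defb30 (-0.97) and Defb21 (-0.58), had an adjusted p under 0.05.

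Marker genes of some testis cell types moved beside these values and those of others did not. Of 10 Sertoli cell genes, 5 rose and 0 fell in KO testes, among them Inha (0.77), Dhh (0.66), Clu (0.63) and Cldn11 (0.59), with a median of 0.49 over 14 kept probes against 0.04 over all kept probes. Their summed deposited signal was 30055.1 to 30910.5 in KO testes, 21028.4 to 25064.5 in HET testes and 21543.5 to 21728.2 in WT testes. At a limma unadjusted p under 0.05, 11 of the 14 Sertoli cell probes passed, against 27.8% of all kept probes. Of all kept probes, 2.24% were called higher and 4.63% lower. Of 7 spermatid genes with a probe, 0 rose and 1 fell (Akap4 at 1 of its probes, -0.68), with a median of -0.27 over 11 kept probes. Their summed signal was 151972 to 152746 in KO, 146479 to 166436 in HET and 166725 to 171855 in WT. These sums were not scaled between arrays. The lower Sertoli and spermatid sums in HET testes came from the litter 2 array, whose summed signal over all probes was the lowest (15427284). Of 7 Leydig cell genes, which make testosterone, 1 rose (Cyp17a1, 0.76), with a median of 0.33. Of 6 spermatogonial and 6 spermatocyte genes none was called by limma, with medians of 0.05 and -0.01. At an unadjusted p under 0.05, 1 of 4 and 1 of 7 kept probes of these lists passed, against 27.8% of all. For the spermatid and Leydig cell lists 4 of 11 and 3 of 7 passed. Of 5 adipocyte genes, 3 had a kept probe and 2 fell (Adipoq, -0.75, and Retn, -0.61), with a median of -0.75. Over the settings run, the Retn difference was as small as -0.16. Its call ended without background correction, with normexp at offset 50 and with the deposited series values. With 1 array left out the calls of these named genes held in at most 2 of 6 fits. The part of cell composition in the defensin differences was not tested, and in whole testis fewer cells of a type and less RNA per cell cannot be told apart.

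Genes that sense or accompany defensins were mostly below the test's threshold. Of 11 receptors and signalling genes, none was called (0 rose and 0 fell by limma). At an unadjusted p under 0.05, 5 of 8 kept probes passed, against 27.8% of all kept probes. The 2 kept Ccr6 probes differed by -0.39 and -0.43 with limma adjusted p-values of 0.0953 and 0.135. Of 12 other antimicrobial genes with a probe, 1 rose, lysozyme Lyz1 (0.81), while its other kept probe gave -0.29 (limma adjusted p = 0.320), and 1 fell, Bpi (-0.67, limma adjusted p = 0.0427). Of 8 macrophage and neutrophil genes, 1 rose (Mrc1, 0.58). Leaving out 1 array kept the Lyz1 call in 2 of 6 fits and the Bpi and Mrc1 calls in 0 of 6. No keratinocyte or simple epithelium gene was called by limma (2 of 3 kept probes at an unadjusted p under 0.05, against 27.8% of all). Krt5 and Krt14, which mark the stratified epithelia where Defb14 is known, were detected on no array.

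**Figure D3:**
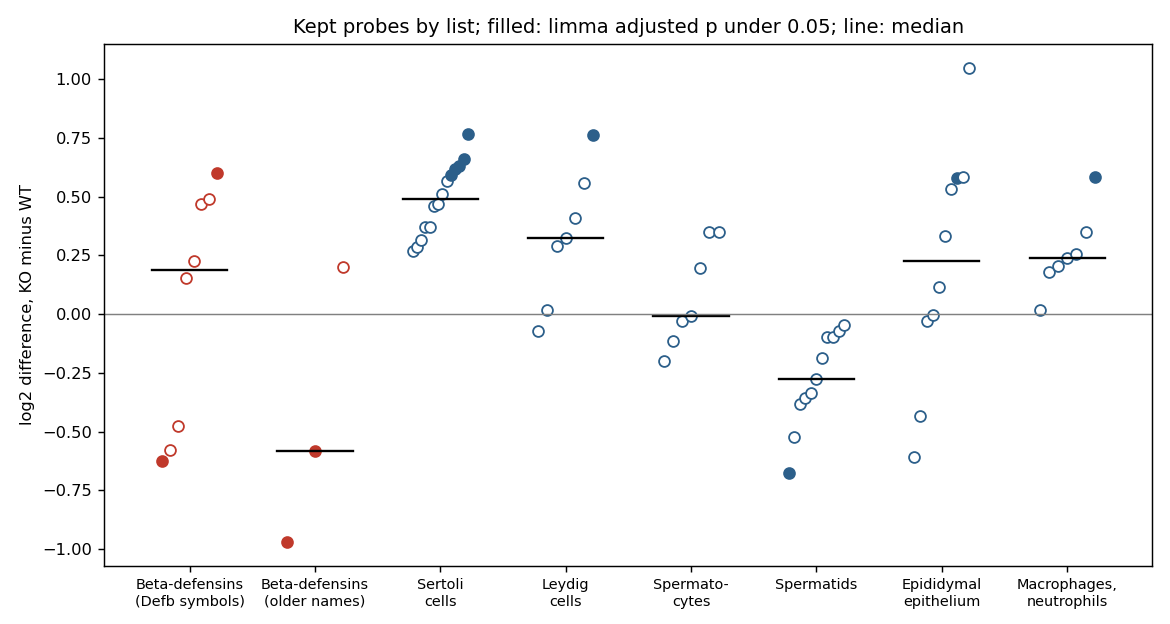
Log2 KO minus WT difference (y axis) of every kept probe of the beta-defensins and of marker lists. Each point is a probe, filled where the limma adjusted p was under 0.05, and lines are medians. Sertoli cell probes all lie above 0 (median 0.49), spermatid probes below 0 (median -0.27), and beta-defensin probes on both sides.

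The other 32 member probes did not pass the filter, and 24 of them were detected on no array. Undetected members included Defb1, made in kidney and other epithelia, and Defb2. Of the rest, 6 were detected on 1 array, 1 (Defb4, an inducible epithelial defensin) on 2 and 1 (Defb17, now Defb41) on 3. In all, 11 of 192 readings of these probes were below a detection p of 0.05 (5.73%), against 4.18% of readings of all probes that did not pass. The readings numbered 1 and 4 in the KO testes of litters 1 and 2, against 2 and 2 in HET testes and 1 and 1 in WT testes. Their signals ran from 86.2 to 121.3 on the KO array of litter 2 and from 82.6 to 109.4 on the other 5 arrays.

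At a detection p under 0.01 only Defb38 and Defb37 remained, both on the KO array of litter 2, where 0.280% of all readings of such probes passed over the 6 arrays. Defb38 had signals of 93.8 and 121.3 in KO testes, against 93.6 and 91.6 in HET testes and 85.5 and 92.2 in WT testes. Its detection p was 0.00107 in the KO mouse of litter 2 and at least 0.325 on the other 5 arrays. Defb37 (ILMN_2913432) had signals of 95.1 and 114.1 in KO testes, against 98.6 and 91.8 in HET testes and 89.5 and 99.3 in WT testes. Its detection p was 0.00641 in the same mouse, and its second probe was detected on no array. Both signals thus rest on 1 mouse, were not above background in the KO mouse of litter 1 and gave no genotype comparison. The sperm coat protein gene Defb22, listed as 9230002F21Rik, had 2 probes detected in that mouse alone, at signals of 104.3 and 105.9 (detection p 0.0342 and 0.0192).

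**Figure D4:**
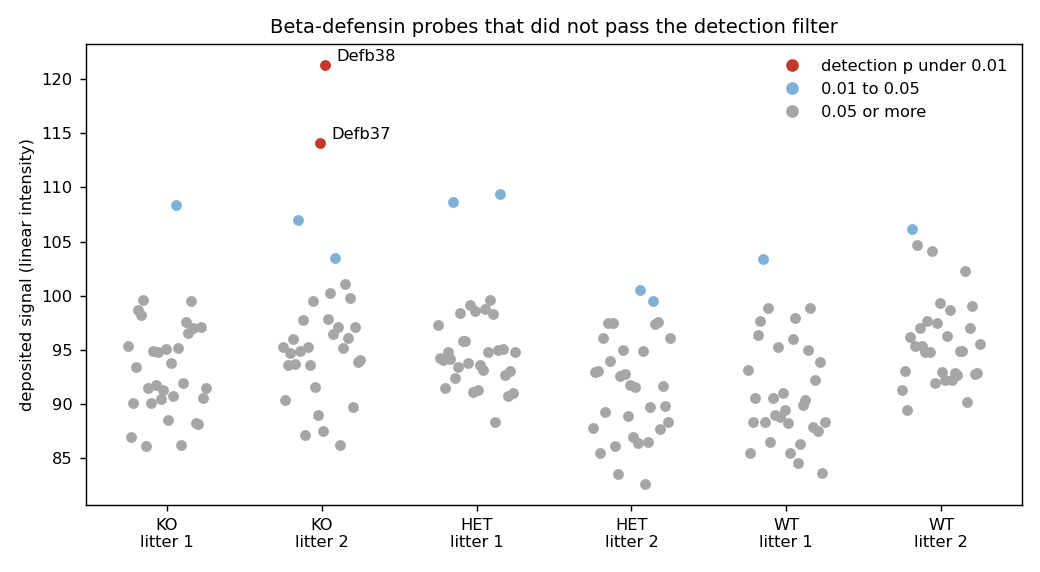
Deposited signal (y axis, linear intensity) of the 32 beta-defensin probes that did not pass the detection filter, on each of 6 arrays. Points are probes, red where the detection p was under 0.01. Defb38 (121.3) and Defb37 (114.1) in the KO mouse of litter 2 are the red points.

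The same array held other transcripts of the epididymal list. Over all 45281 probes, 4 on the KO array of litter 2 lay more than 1 log2 unit above the highest of the other 5 arrays, a threshold chosen after the values had been seen. They were Spink8 (7.71 against at most 5.62), Wfdc15b (5.71 against 4.39), Defb38 (5.38 against 4.35) and Cd52 (7.30 against 6.28). The Spink8 and Cd52 probes were detected on all 6 arrays, those of Wfdc15b and Defb38 on this array alone. All but Defb38 are on the epididymal list, which was chosen with earlier results of these data known. A second Wfdc15b probe was detected on no array. A second Cd52 probe had a signal of 100.3 in this mouse (detection p 0.1015) and was detected only on the WT array of litter 1. At 0.5 log2 units the array had 52 such probes, 2 of them Defb, against 33 to 64 on the other arrays with 0 Defb. Without background correction 1 probe passed 1 log2 unit and Defb38 ranked 52, with 0.33.

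Most defining markers of epididymal epithelium were at or near background, with 1 Cst11 probe the exception. Rnase10, Lcn8, Crisp1, Crisp4 and Gpx5 were detected on no array. Lcn5 and Adam7 were each detected on 1 array, in both cases the KO array of litter 2 (detection p 0.0438 and 0.0278). Of 9 defining genes with 14 probes, 2 had a kept probe. The kept Cst11 probe was detected on all 6 arrays, with signals of 141.1 and 157.2 in KO testes, against 147.3 and 133.6 in HET testes and 138.0 and 134.7 in WT testes. The other Cst11 probe was detected on no array, and Ros1 was detected on 4 arrays. For the defining genes the summed signal was 1366.3 to 1394.4 in KO, 1324.1 to 1378.7 in HET and 1317.7 to 1401.9 in WT, mostly from probes that were not kept. Of 26 epididymal genes with a probe, 9 had a kept probe, and 1 rose (Cst12, 0.58, limma adjusted p = 0.0447) and 0 fell, with a median of 0.23. At a limma unadjusted p under 0.05, 4 of 10 kept probes passed, against 27.8% of all kept probes. Cst12 and Wfdc10 were higher in KO testes, and Ros1 and Ces5a lower. Of all kept probes, 2.24% were called higher and 4.63% lower. The Cst12 call held in 0 of 6 fits with an array left out. The other kept genes were not called at the adjusted threshold. Their KO minus WT differences were 1.05 for Spink8, 0.58 for Wfdc10, 0.53 for Cd52 and 0.12 for Cst11. They were 0.33 and -0.03 for the 2 Aqp9 probes, -0.001 for Lcn10, -0.43 for Ros1 and -0.61 for Ces5a. The summed signal of the list, not scaled between arrays, was 11135.1 in the KO mouse of litter 1 and 10328.8 in that of litter 2. It was 7866.8 to 10198.7 in HET and 8800.2 to 8878.5 in WT. In the KO mouse of litter 1, most of it came from Cst12 (3059.3), the 2 Aqp9 probes (2501.7 and 1012.4) and Wfdc10 (1030.5). These 3 genes were detected on all 6 arrays, and which tissue their signal came from was not tested. Among the 40 probes of this list, 11 were highest on the KO array of litter 2, against 4 to 7 on each other array. Only 10 of the 40 were kept, so most of these ranks rest on signals at or near background. Of the 32 Defb probes not kept, 5 were highest on the KO array of litter 2 and 8 on the HET array of litter 2. The part of duct tissue in the kept defensin signals was not tested.

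The HET array of litter 2 carried a different set. There 6 probes lay more than 1 log2 unit above the others (Svs4, by 4.07, Pate4, Svs3b, Spink1, Svs5 and Svs1), 5 of them on the seminal vesicle and prostate list, and 0 were Defb. The summed signal of that list was 2832.1 on this array and 1303.8 to 1435.7 on the other 5. The beta-defensins detected on that array and not kept were Defb4 and Defb5, at signals of 100.5 and 99.5.

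**Figure D5:**
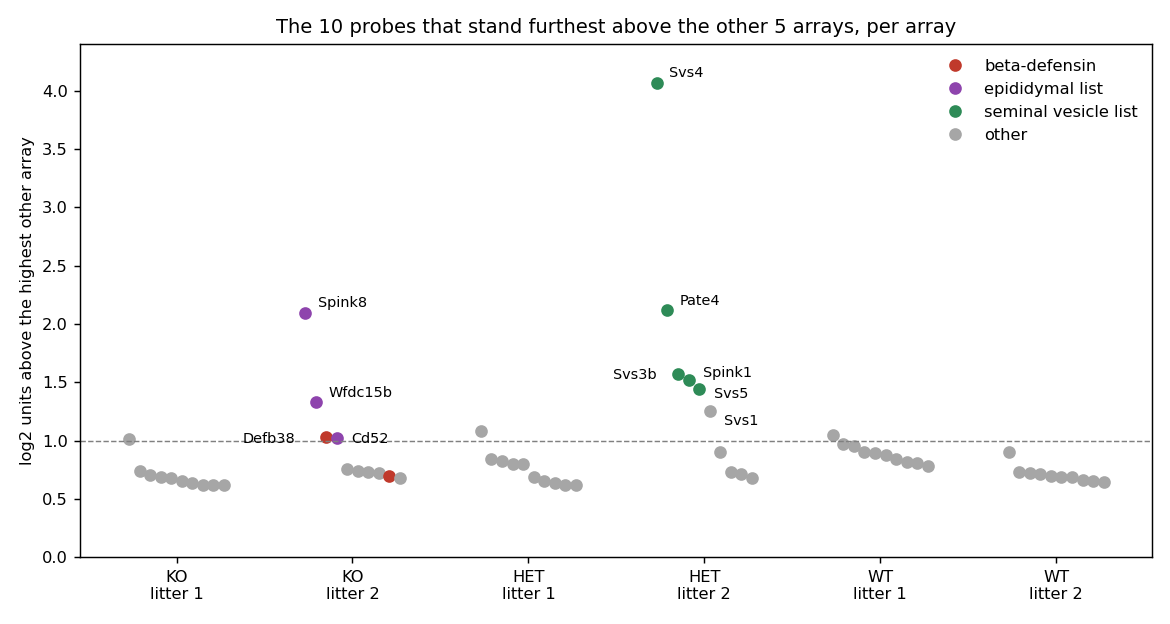
For each array, the 10 probes furthest above the highest of the other 5 arrays (y axis, log2 units, dashed line at 1). Points are coloured by list. The KO array of litter 2 shows Spink8, Wfdc15b, Defb38 and Cd52 above the line, and the HET array of litter 2 shows Svs4 at 4.07.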

How the data were processed

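Per the labels' protocols, total RNA was extracted on RNeasy columns, amplified and labelled with biotin for Illumina arrays. Per the file headers, the deposited table holds an average bead signal, a linear intensity, and a detection p-value per probe and array. The submitters' processing notes name GenomeStudio. For scanner settings and any background step, the sources used here name none. The authors' deposited series values, also intensity, were those signals times 1 factor per array (0.960 to 1.10).

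Background was corrected with limma 3.58.1 in R 4.3.3 (neqc, offset 16, control spread inferred from detection p-values), then values were quantile normalized and put on a log2 scale. The 20573 probes with 1 or more genotypes detected on both arrays (p under 0.05) were fitted with limma's lmFit and eBayes in 1 model of all 6 arrays, with Benjamini-Hochberg adjustment over all of them and a threshold of 0.05. The fit was tested on simulated data. With 2 mice per genotype, the number of arrays limits the precision.

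Labels give the litter of each mouse, so litters pair the mice. Litter differences correlated between genotypes at 0.091 (WT and HET), 0.134 (WT and KO) and 0.168 (HET and KO). Symbols were updated through RefSeq (GRCm38.p6), also the source of the promoters. The members, marker lists and thresholds were chosen with earlier results of these data known. Every kept Defb probe is named, with undetected members by counts, kept epididymal genes, and up to 4 genes per other list by smallest p. Other genes were named after their values were seen. Alternatives were the background correction, normalization, filter, intensity trend, litter block, deposited series values and each array left out.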

Additional observations from a re-analysis of the deposited data

How the results depend on the processing

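The 2 Defb probes called in KO against WT became 5 without background correction, with normexp at offset 50, with a detection threshold of 0.01 and with an intensity trend, 4 with the deposited series values, 1 without a filter and 0 with median scaling, under which the KO minus WT median over all kept probes was 0.12 in place of 0.04. The litter block and cyclic loess each gave 3 Defb calls, with 1895 and 1555 calls over all probes. With 1 array left out, which leaves 1 mouse in a genotype, the Defb calls were lost. In KO against HET, 0 Defb calls became 2 without background correction, with offset 50, with the intensity trend and with the series values. Over all probes, 23 calls became 779, 949, 866 and 1685 in the same order. HET against WT had 0 Defb calls under every setting run. Under the litter block only Defb15 changed its call. The number of kept Defb probes was 8, and 9 to 12 with an array left out. Some differences changed sign: Defb27 in KO against WT (-0.0031 to 0.45 with an array left out, lowest without the WT mouse of litter 1), in HET against WT Defb27 (-0.0090 with median scaling, -0.19 to 0.27 with an array left out, lowest without the WT mouse of litter 1), Defb33 (-0.048 with median scaling, -0.010 with the series values, -0.018 to 0.10, lowest without the HET mouse of litter 2) and Defb36 (-0.018 to 0.14, lowest without the WT mouse of litter 1), and in KO against HET Defb15 (-0.50 to 0.095, highest without the HET mouse of litter 2) and Defb33 (-0.026 to 0.24, lowest without the KO mouse of litter 2). The 4 probes standing above the other arrays in the KO mouse of litter 2 became 1 without background correction, 1 with offset 50 and 1 with the series values, alternatives chosen after seeing the data. The causes were not tested.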
